A study of Mus musculus with 12 samples.

Results

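The 9 genes described here were Tyms, Tk1, Dpyd, Umps, Upp1, Tymp, Dut, Rrm1 and Rrm2, which encode enzymes of nucleotide and fluoropyrimidine metabolism. They were chosen by name for these roles, and they are 9 of the 53465 genes in the deposited table. Their RNA was measured in LSKs, the bone marrow cells that lack lineage markers and carry Sca-1 and c-Kit, a gate that holds hematopoietic stem cells and multipotent progenitors. The 4 groups held 3 libraries each: mice of both genotypes, Tespa1+/+ and Tespa1-/-, were either left untreated or given 5-fluorouracil (5-FU) and sampled on day 9, and the latter libraries are called treated here. The study's methods describe male mice of 8 to 10 weeks. The deletion allele, B6.129S-Tespa1tm1Smoc, had been backcrossed to C57BL/6 for more than 6 generations, and the sources used here name no Cre driver that would limit the deletion to LSKs. The labels name the wild-type animals as littermates and do not say whether each library came from its own mouse or from pooled mice, so that the p-values below measure the spread between these libraries.

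DNA synthesis needs a balanced supply of the deoxynucleotides, and these enzymes make that supply or handle its pyrimidine part. Ribonucleotide reductase, built from the large subunit Rrm1 and the small subunit Rrm2, turns ribonucleotides into deoxyribonucleotides, and thymidylate synthase (Tyms) makes dTMP from dUMP. 5-FU passes through the same metabolism. Umps, Upp1 with uridine kinases, and Tymp with Tk1 turn it into active nucleotides, and its product FdUMP blocks Tyms. Dut removes dUTP before it enters DNA, and Dpyd starts the breakdown of the drug.

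Rrm2 and Rrm1 were the members whose RNA differed most firmly between genotypes after 5-FU, and Tyms, the target of the drug, was one that showed no called difference in any comparison. The 150 bases before the RefSeq transcription start of these 3 genes are therefore shown, 5′ to 3′ on the strand of the gene, in the GRCm38.p6 build. Capitals mark CCAAT words in Rrm2 and Rrm1 and the CACGTG word (the E-box) in Tyms. The Rrm2 stretch lies at chr12:24708104-24708253 on the plus strand, that of Rrm1 at chr7:102441545-102441694 on the plus strand, and that of Tyms at chr5:30073626-30073775 on the minus strand.
Rrm2: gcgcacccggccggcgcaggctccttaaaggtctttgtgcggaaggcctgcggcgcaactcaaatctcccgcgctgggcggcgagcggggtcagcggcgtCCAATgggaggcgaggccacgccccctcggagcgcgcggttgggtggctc
Rrm1: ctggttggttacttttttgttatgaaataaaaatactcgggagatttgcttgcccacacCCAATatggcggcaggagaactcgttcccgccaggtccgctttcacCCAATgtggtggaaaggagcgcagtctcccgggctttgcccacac
Tyms: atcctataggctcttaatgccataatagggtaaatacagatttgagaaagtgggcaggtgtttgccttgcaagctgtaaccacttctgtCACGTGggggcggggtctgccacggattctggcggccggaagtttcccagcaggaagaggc

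Words were searched on both strands of windows of 300 bases, from 250 bases before the start to 50 bases from it, for all 9 genes and for 32851 RefSeq windows in all. Rrm2 held 1 CCAAT word, beginning 50 bases before its start, and Rrm1 held 2, beginning 91 and 45 bases before its start. Tymp also held 2, whereas 37.4% of all windows held at least 1. The CACGTG word, which reads the same on both strands, was found in the Tyms window, 61 bases before the start, and in 7.15% of all windows. An E2F word (TTTCCCGC, TTTCGCGC, TTTGCCGC or TTTGGCGC) was in none of the members' windows and in 2.26% of all windows. These are matches of letters in 1 window, and no binding was measured.

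Libraries held 22118154 to 28275079 counts on genes. The floor of 3 counts therefore equals 0.107 to 0.136 CPM (counts relative to the TMM-scaled library size), which allows for counting error only. Tespa1 itself stood at 43 to 49.8 CPM in untreated Tespa1+/+, 34.5 to 35 in untreated Tespa1-/-, 47.2 to 57.4 in treated Tespa1+/+ and 17.3 to 20.8 in treated Tespa1-/-. The knockout libraries were thus lower than those of Tespa1+/+ under the same treatment but kept reads of the gene. Reads were counted over the whole gene and the deleted exons are not given in the sources used here, so that these levels do not measure the deletion itself. Kit, the c-Kit gene of the sort, was at 328 to 474 CPM in the 12 libraries. The summed level of 9 LSK and stem cell markers was 1670 to 1760 CPM in untreated Tespa1+/+, 1400 to 1450 in untreated Tespa1-/-, 1420 to 1490 in treated Tespa1+/+ and 861 to 944 in treated Tespa1-/-. In Tespa1+/+ the sum fell after 5-FU although 7 of the 9 had a fitted rise, with a median of 0.54 on the log2 scale. The 2 that fell were abundant: Flt3, with means of 610 CPM untreated and 314 treated, and Cd34, with 397 and 267.

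The members fell into an abundant and a rare class. In untreated Tespa1+/+ LSKs, the mean level per length, in CPM per kilobase (kb) with the gene length implied by the deposited counts and FPKM values, was 45.2 ± 3.73 (SD, n = 3) for Dut, 20.8 ± 0.142 for Rrm1, 19.4 ± 0.789 for Umps, 17.9 ± 0.536 for Rrm2, 4.08 ± 0.349 for Tk1 and 3.51 ± 0.444 for Tyms. Tymp at 0.68 ± 0.706, Upp1 at 0.417 ± 0.0861 and Dpyd at 0.034 ± 0.0295 CPM per kb were rare. Neighbours that overlapped between libraries were Umps and Rrm2, Tk1 and Tyms, and Tymp and Upp1. In treated Tespa1-/- the order of the abundant members became Dut at 58.7 ± 3.59, Rrm2 at 38.2 ± 0.743, Rrm1 at 23.7 ± 0.851, Umps at 14.9 ± 0.438, Tk1 at 6.34 ± 0.59 and Tyms at 3.88 ± 0.391 CPM per kb.

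This order depended on the length used, since the implied lengths exceeded the merged GENCODE M21 exons for most members (10435 against 6089 bases for Tyms). With the length of the principal transcript, an alternative added after the data were seen, the untreated Tespa1+/+ means were 68.0 for Dut, 65.2 for Rrm1, 32.1 for Umps, 30.4 for Rrm2, 20.9 for Tk1 and 11.6 CPM per kb for Tyms, with Upp1 (1.07) above Tymp (0.681). In treated Tespa1-/- they were 88.4 for Dut, 74.6 for Rrm1, 64.9 for Rrm2, 32.5 for Tk1, 24.8 for Umps and 12.8 for Tyms. Rrm2 stood above Umps in that group and below it in untreated Tespa1+/+ by either length, although the untreated libraries of these genes overlapped.

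**Figure D1:**
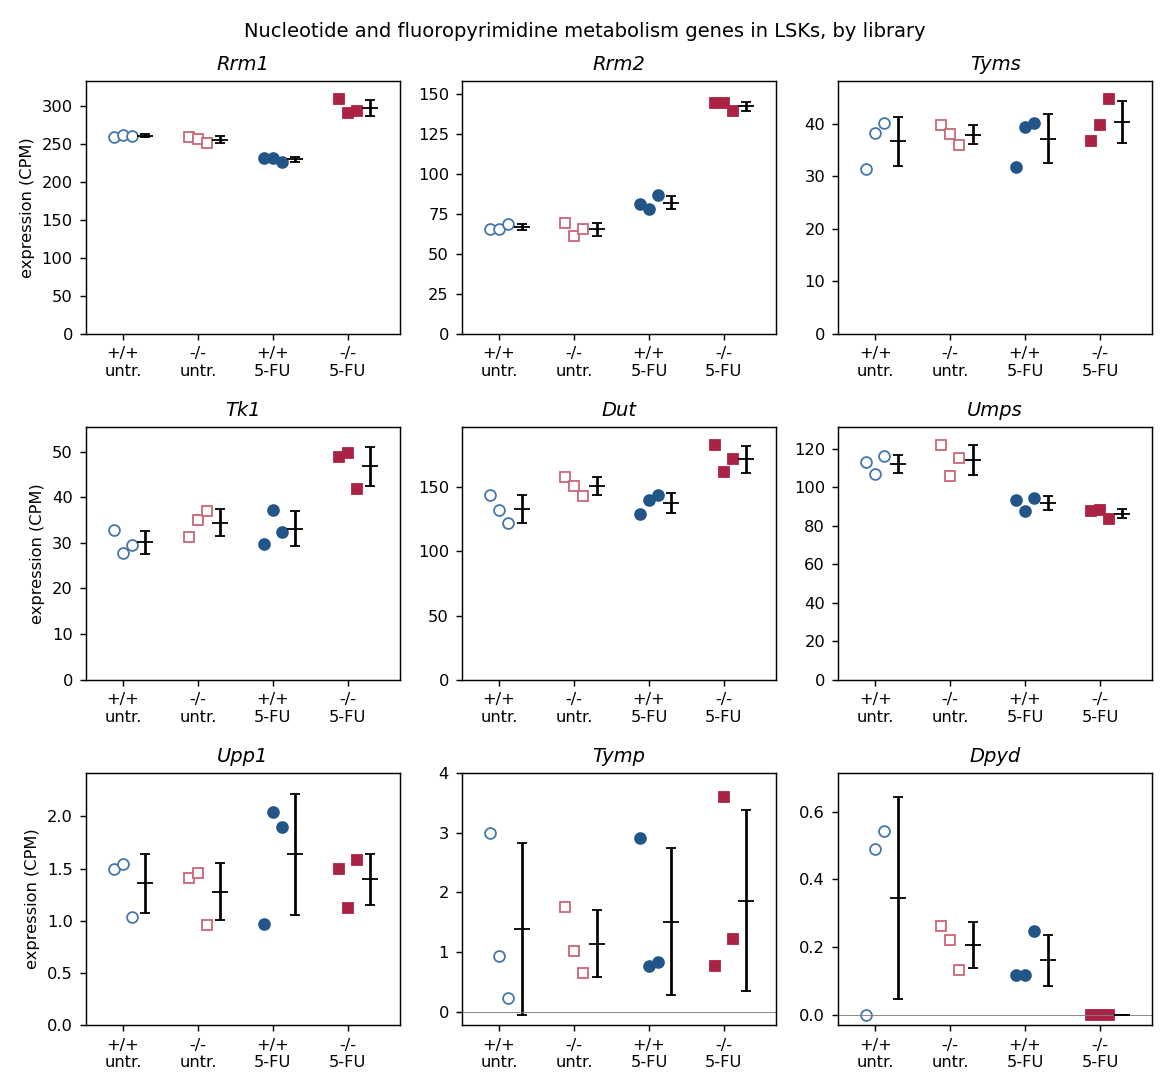
Level of each of the 9 members in CPM (vertical axis, which includes 0) in the 12 libraries. Circles are Tespa1+/+ and squares Tespa1-/-, open symbols untreated and filled symbols day 9 after 5-FU, and the bar beside each group gives the mean ± SD of 3 libraries. Rrm2 lay at 139 to 144 CPM in treated Tespa1-/- and at 86.5 CPM or less elsewhere, while the Tyms groups overlapped.

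In wild-type LSKs, 5-FU moved the members little. By the quasi-likelihood test of edgeR at a Benjamini-Hochberg adjusted p below 0.05, taken over all genes tested, 0 of the 8 members tested were higher and 1, Umps, was lower, where 3.77% of the 17002 genes tested were called higher and 4.18% lower. Without adjustment, at a p below 0.05, 1 member was higher (Rrm2) and 2 were lower (Umps and Rrm1), which are the members that DESeq2 called. Over all genes the calls were 641 higher and 711 lower, a split that became 763 and 550 with library totals in place of TMM. Dpyd had too few counts to pass the filter in any comparison of all the libraries concerned.

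In Tespa1-/- LSKs, 3 members rose after 5-FU, Rrm2, Rrm1 and Tk1, and Umps fell. Over all 17228 genes tested, 10.7% were called higher and 8.64% lower, so that the members' share of 3 of 8 stood above the share of all genes for rises, and 1 of 8 near it for falls. The medians over the members tested were 0.08 on the log2 scale in Tespa1+/+ and 0.20 in Tespa1-/-, beside 0.01 and -0.01 over all genes tested.

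Between the genotypes without treatment, 0 of 8 members were called in either direction by edgeR or by DESeq2, and at an unadjusted p below 0.05 only Dut was higher and 0 were lower. Among all genes tested, 1.64% were called higher and 3.59% lower in Tespa1-/-. After 5-FU, Rrm2, Rrm1, Dut and Tk1 were higher in Tespa1-/- than in Tespa1+/+, 4 of 8 against 7.34% of all 17239 genes tested. None was lower by edgeR, by DESeq2 or at an unadjusted p below 0.05, against 5.78% of all genes. Fitted over the 12 libraries, the difference of the 5-FU effects between genotypes (the interaction) was called for 2 of 8 members, Rrm2 and Rrm1, both larger in Tespa1-/-, where 3.02% of 18696 genes were called larger. None was smaller by edgeR, by DESeq2 or at an unadjusted p below 0.05, where 1.99% of genes were called smaller. The comparisons share libraries, each group serving in 2 of the 4 pairwise ones, so that their values are not independent. In bulk samples, fewer cells of a type and less RNA per cell cannot be told apart.

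**Figure D2:**
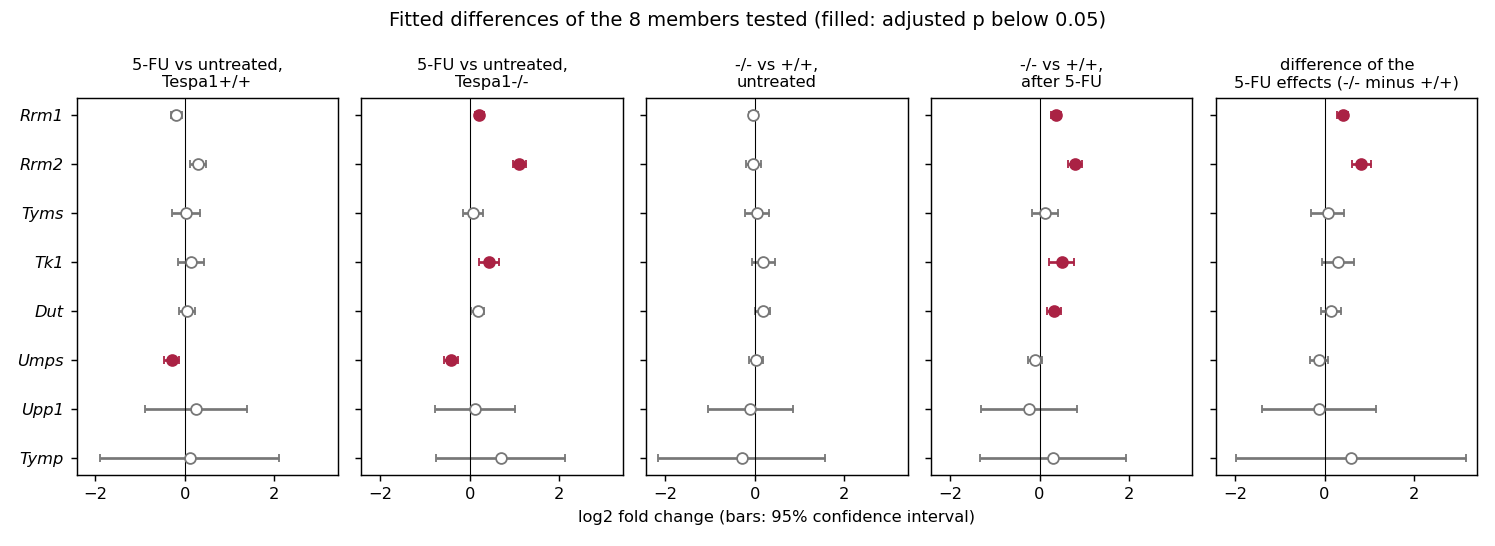
Fitted log2 fold change (horizontal axis) of the 8 members tested in the 4 pairwise comparisons and in the difference of the 5-FU effects, with 95% confidence intervals. Filled symbols have an adjusted p below 0.05. Rrm2 stood at 1.11 in Tespa1-/- after 5-FU against untreated, and the intervals of Upp1 and Tymp were wide in every panel.

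Rrm2, the small subunit of ribonucleotide reductase that limits the activity of the enzyme across the cell cycle, is located at chr12:24708241-24714146 of GRCm38. Its level was 65.6, 65.3 and 68.9 CPM in the untreated Tespa1+/+ libraries, 69.5, 60.9 and 65.2 CPM in untreated Tespa1-/-, 81.1, 78.2 and 86.5 CPM in treated Tespa1+/+, and 144, 144 and 139 CPM in treated Tespa1-/-. The untreated groups overlapped, the treated Tespa1+/+ libraries lay above all untreated ones, and the treated Tespa1-/- libraries lay above all others. In Tespa1-/-, Rrm2 rose 2.16-fold after 5-FU (log2 fold change 1.11, SE 0.0643, Benjamini-Hochberg adjusted p = 9.35e-06 by the quasi-likelihood test of edgeR, higher in 3 of 3 libraries). In Tespa1+/+ the log2 fold change was 0.30 (SE 0.0805, 95% interval 0.118 to 0.482) and missed the threshold in edgeR's test with an adjusted p of 0.0544, although it passed in the alternatives with library totals, with 10 counts in every library, with DESeq2 and with all 12 libraries.

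Compared with treated Tespa1+/+, Rrm2 was 1.73-fold higher in Tespa1-/- (log2 fold change 0.79, SE 0.0647, adjusted p = 7.71e-05 by edgeR). The untreated genotypes differed by -0.03 on the log2 scale, with a 95% interval of -0.201 to 0.142. The interaction was 0.82 on the log2 scale (SE 0.0943, 95% interval 0.622 to 1.03, adjusted p = 0.00022 by edgeR), and each of these calls on treated Tespa1-/- libraries was kept with any 1 library left out. Rrm2 was also the 1 member that passed the study's thresholds, P below 0.05 without adjustment together with more than 1.5-fold, in the comparisons of treated Tespa1-/- libraries and in the interaction.

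Rrm1, the large subunit that carries the catalytic and regulatory sites, lies at chr7:102441695-102469771 and changed less. Its level was 259, 262 and 261 CPM in untreated Tespa1+/+, 259, 257 and 251 CPM in untreated Tespa1-/-, 232, 232 and 226 CPM in treated Tespa1+/+, and 310, 291 and 293 CPM in treated Tespa1-/-. The treated groups lay on opposite sides of the untreated ones and did not overlap with them. The log2 fold change after 5-FU was 0.21 in Tespa1-/- (SE 0.0445, adjusted p = 0.0109 by edgeR) and -0.18 in Tespa1+/+ (SE 0.0497, adjusted p = 0.0572 by edgeR). The second of these was called lower by DESeq2 (adjusted p = 0.0239) and in the fit of all 12 libraries (adjusted p = 0.0119).

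After 5-FU, Rrm1 was 1.29-fold higher in Tespa1-/- than in Tespa1+/+ (log2 fold change 0.37, SE 0.0495, adjusted p = 0.0012 by edgeR), and the interaction was 0.40 (SE 0.0593, adjusted p = 0.00147 by edgeR). Both calls were kept with any 1 library left out. The untreated genotypes differed by -0.03, with a 95% interval of -0.125 to 0.0701.

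The 2 subunits did not move in proportion. The ratio of Rrm2 to Rrm1, both in CPM per kb, averaged 0.863 ± 0.0254 in untreated Tespa1+/+, 0.862 ± 0.0551 in untreated Tespa1-/-, 1.21 ± 0.0784 in treated Tespa1+/+ and 1.61 ± 0.0553 in treated Tespa1-/- (SD, n = 3). With the principal transcripts' lengths the same ratio was 0.465, 0.465, 0.65 and 0.869, so that the side of 1 depended on the length. A change of length scales every library alike and cannot alter the order of the groups. The treated libraries lay above the untreated ones in both genotypes, and the genotypes did not overlap after 5-FU. For each of these 3 differences the two-sided exact permutation p was 0.1, the smallest that 3 against 3 libraries can give, and 0.21 after Benjamini-Hochberg adjustment over 44 comparisons of ratios, so that the test could not pass a threshold of 0.05.

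Rrm2 was also set against the summed level of other proliferation genes, lists that do not hold Rrm2 itself. Its CPM equalled 1.47% ± 0.0431 of the summed CPM of 30 S-phase genes in untreated Tespa1+/+, 1.46% ± 0.0967 in untreated Tespa1-/-, 1.97% ± 0.104 in treated Tespa1+/+ and 3.13% ± 0.0334 in treated Tespa1-/- (SD, n = 3). Against the summed CPM of 20 G2 and mitosis genes it equalled 1.81%, 1.78%, 2.33% and 2.77% in the same order. The treated libraries lay above the untreated ones of their genotype on both measures, and the exact permutation p was again 0.1 for each difference involving treatment.

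**Figure D3:**
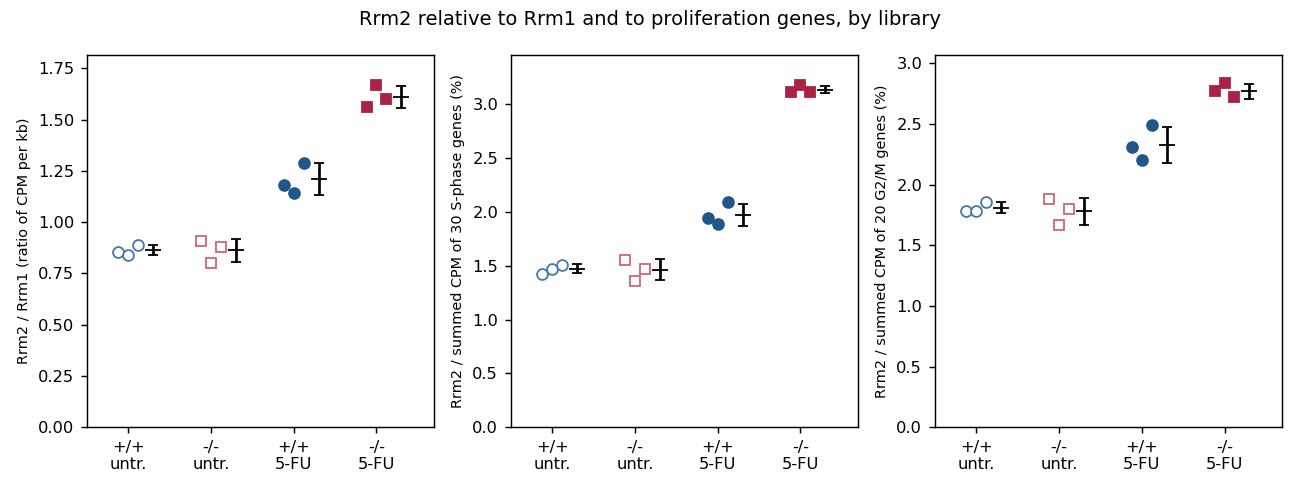
Ratio of Rrm2 to Rrm1 in CPM per kb (left), Rrm2 as a percentage of the summed CPM of 30 S-phase genes (middle) and of 20 G2 and mitosis genes (right), lists without Rrm2, in the 12 libraries, with axes from 0 and symbols as in the plot of levels. Bars give the mean ± SD of 3 libraries, and the means of the ratio are 0.863, 0.862, 1.21 and 1.61 from left to right.

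Among the proliferation genes, the G2 and mitosis list was higher in treated Tespa1-/-, as Rrm2 was, whereas in treated Tespa1+/+ the sums of both lists lay below the untreated ones while the Rrm2 libraries lay above them. The summed level of the S-phase genes was 4430 to 4610 CPM in untreated Tespa1+/+, 4420 to 4480 in untreated Tespa1-/-, 4140 to 4180 in treated Tespa1+/+ and 4470 to 4610 in treated Tespa1-/-. The summed level of the G2 and mitosis genes was 3670 to 3710, 3620 to 3690, 3470 to 3560 and 5070 to 5180 CPM in the same order. Between the treated genotypes, 18 of 20 G2 and mitosis genes and 9 of 30 S-phase genes were higher in Tespa1-/-, with medians of 0.61 and 0.13 on the log2 scale beside -0.01 over all genes tested. Of all genes tested in that comparison, 7.34% were called higher and 5.78% lower.

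Markers of other lineages moved as well. Their counts of genes higher or lower between the treated genotypes stand beside 7.34% of all genes tested called higher and 5.78% lower. The summed level of 8 erythroid markers was 363 to 382 CPM in treated Tespa1-/-, against 36.8 to 49.7 in treated Tespa1+/+, 39.7 to 49.5 in untreated Tespa1-/- and 19 to 26.3 in untreated Tespa1+/+, and 8 of 8 were higher in the treated Tespa1-/- libraries than in the treated Tespa1+/+ ones. For 10 neutrophil markers the sums were 5150 to 5490, 2370 to 2570, 3360 to 3520 and 2450 to 2540 CPM in that order. Mpo, a granule enzyme that progenitors already express, made up most of these sums (chosen for mention after its values were seen), with means of 3610, 2160, 3120 and 2290 CPM. Genes of later neutrophil stages (S100a8, S100a9, Camp, Ngp and Ltf) were at 2.53 CPM or less in each library outside treated Tespa1-/-, the highest being Ngp in a treated Tespa1+/+ library. S100a8 stood at 125, 125 and 140 CPM in treated Tespa1-/- and at 0.78 CPM or less in each other library, and Camp at 64.7, 73.3 and 57 CPM and at 0.568 CPM or less. Of these 10, 9 were higher between the treated genotypes and 3 were at 0 in every untreated Tespa1+/+ library. In the same comparison, 7 of the 9 LSK markers were lower. Monocyte markers, 6 genes, summed to 388 to 405 CPM in treated Tespa1-/- and to 272 to 289 in treated Tespa1+/+, against 252 to 262 and 213 to 239 in the untreated libraries of each genotype, and between the treated genotypes 1 was higher and 1 lower. The sums of 6 B cell markers were 216 to 232 and 198 to 201 CPM in the treated libraries and 32.9 to 36.3 and 45.6 to 51.9 in the untreated ones, in the same order of genotypes, and 2 were higher in treated Tespa1-/- than in treated Tespa1+/+. T cell markers summed to 17.1 to 25.3 and 19.1 to 21.9 CPM treated and 35.8 to 39.4 and 34.5 to 39.9 untreated. Most of these sums was Lck, which was lower after 5-FU in both genotypes (log2 fold change -0.78 in Tespa1+/+ and -1.05 in Tespa1-/-). Between the treated genotypes, 1 of the 5 tested was higher, Cd3e, at 0.632 to 1.39 CPM in Tespa1-/- and 0 in Tespa1+/+. The part of these cells and of proliferation in the members' differences was not tested.

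Of the members around thymidylate, Tk1 and Dut were called between the treated genotypes and Tyms was not, but the levels of Tyms and Dut were not shown to change differently. The ratio of Tyms to Dut in CPM per kb was 0.0758 ± 0.00559 in treated Tespa1+/+ and 0.0663 ± 0.00878 in treated Tespa1-/- (SD, n = 3), with overlapping libraries and a two-sided exact permutation p of 0.3. Tyms, which makes dTMP and is blocked by FdUMP, lies at chr5:30058202-30073617. Its level was 31.4, 38.3 and 40.2 CPM in untreated Tespa1+/+, 39.8, 38.1 and 36 CPM in untreated Tespa1-/-, 31.8, 39.5 and 40.2 CPM in treated Tespa1+/+, and 36.7, 39.9 and 44.8 CPM in treated Tespa1-/-. All 4 groups overlapped.

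The log2 fold change of Tyms after 5-FU was 0.02 in Tespa1+/+ (95% interval -0.293 to 0.336) and 0.08 in Tespa1-/- (95% interval -0.143 to 0.302), and the treated genotypes differed by 0.12 (95% interval -0.17 to 0.408). All 3 intervals hold 0, and the last of them also holds the difference fitted for Rrm1 between the treated genotypes, 0.37. The processed pseudogene Tyms-ps, which could share reads with Tyms, had 44 to 92 counts per library, where Tyms had 816 to 1031.

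Tk1, the cytosolic thymidine kinase that salvages thymidine in dividing cells, lies at chr11:117815526-117826092. Its level was 32.9, 27.8 and 29.6 CPM in untreated Tespa1+/+, 31.2, 35.1 and 37 CPM in untreated Tespa1-/-, 29.8, 37.3 and 32.3 CPM in treated Tespa1+/+, and 48.8, 49.8 and 41.8 CPM in treated Tespa1-/-. The treated Tespa1-/- libraries lay above the other 9, which overlapped.

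Tk1 rose in treated Tespa1-/- by 0.43 on the log2 scale (SE 0.102, adjusted p = 0.0176 by edgeR), and it was 0.49 higher in treated Tespa1-/- than in treated Tespa1+/+ (SE 0.121, adjusted p = 0.0265 by edgeR). The first call was lost, with adjusted p up to 0.0721, without untreated Tespa1-/- replicate 1 or 2 or treated Tespa1-/- replicate 1 or 2, and the second, with adjusted p up to 0.0973, without treated Tespa1+/+ replicate 1 or 3 or treated Tespa1-/- replicate 1 or 2. The interaction was 0.30 (95% interval -0.0476 to 0.656) and was not called. The CPM of Tk1 equalled 0.944% of the summed CPM of the G2 and mitosis genes, which do not include Tk1, in treated Tespa1+/+ and 0.914% in treated Tespa1-/-, libraries that overlapped. Against the summed S-phase genes it equalled 0.799% ± 0.0959 and 1.03% ± 0.0844 (SD, n = 3), libraries that did not overlap, with a two-sided exact permutation p of 0.1, the smallest possible.

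Dut, the dUTPase that keeps uracil out of DNA and supplies dUMP to Tyms, lies at chr2:125247190-125258608 and had the highest level per length of the 9. Its level was 144, 132 and 122 CPM in untreated Tespa1+/+, 158, 151 and 143 CPM in untreated Tespa1-/-, 129, 140 and 144 CPM in treated Tespa1+/+, and 183, 162 and 172 CPM in treated Tespa1-/-. The treated Tespa1-/- libraries lay above all others.

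Dut was 1.25-fold higher in treated Tespa1-/- than in treated Tespa1+/+ (log2 fold change 0.32, SE 0.0693, adjusted p = 0.0149 by edgeR). Without treated Tespa1+/+ replicate 1 or treated Tespa1-/- replicate 1 or 3 the adjusted p was 0.0503 to 0.0592 and the call was lost. The untreated genotypes differed by 0.18 (SE 0.0732, 95% interval 0.0166 to 0.351, adjusted p = 0.226 by edgeR), and the interaction of 0.14 (95% interval -0.0829 to 0.365) was not called.

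Umps, which joins orotate to phosphoribosyl pyrophosphate and decarboxylates the product to UMP, and by the first of these reactions turns 5-FU into FUMP, was the member that fell. It lies at chr16:33954782-33967038. Its level was 113, 107 and 116 CPM in untreated Tespa1+/+, 122, 106 and 115 CPM in untreated Tespa1-/-, 93.4, 87.8 and 94.6 CPM in treated Tespa1+/+, and 87.6, 87.9 and 83.4 CPM in treated Tespa1-/-. Every treated library lay below every untreated one, and the treated genotypes overlapped.

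The log2 fold change of Umps after 5-FU was -0.42 in Tespa1-/- (SE 0.0659, adjusted p = 0.00273 by edgeR), a call kept with any 1 library left out. In Tespa1+/+ it was -0.29 (SE 0.0725, adjusted p = 0.0424 by edgeR), which was lost when any 1 of the 6 libraries was left out (adjusted p 0.0697 to 0.132), with library totals (0.0808), without the filter on low counts (0.0611) and with the replicate number as a block (0.0745). The difference between these effects was -0.11 with a 95% interval of -0.316 to 0.0861. An antisense gene, Gm15829, overlaps 6.11% of the exon bases of Umps but had at most 12 counts in a library.

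The remaining members had the lowest counts of the 9. Upp1, the uridine phosphorylase that can join ribose 1-phosphate to 5-FU, had 22 to 53 counts per library, 0.961 to 2.04 CPM, and its groups overlapped in every pairwise comparison. Its log2 fold change after 5-FU was 0.26 in Tespa1+/+ (95% interval -0.875 to 1.4) and 0.12 in Tespa1-/- (95% interval -0.775 to 1.02), so that a 2-fold rise lay inside both intervals and could not be told from no change at this depth.

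Tymp, the thymidine phosphorylase, varied more within groups than between them, with 84, 21 and 5 counts in untreated Tespa1+/+, 40, 23 and 15 in untreated Tespa1-/-, 75, 20 and 20 in treated Tespa1+/+, and 21, 93 and 27 in treated Tespa1-/-. One library each of untreated Tespa1+/+, treated Tespa1+/+ and treated Tespa1-/- stood above the other 9. In GENCODE M21 its exons share 42.0% of their bases with Sco2 on the same strand and 26.3% with Ncaph2 on the opposite strand. These neighbours had 146 to 270 and 2045 to 3860 counts, and the sources used here do not state whether strand was used in counting, so that the reads of Tymp cannot be assigned with certainty.

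Dpyd, dihydropyrimidine dehydrogenase, which starts the breakdown of uracil, thymine and 5-FU and is active mainly in liver, had 0, 11 and 12 counts in untreated Tespa1+/+, 6, 5 and 3 in untreated Tespa1-/-, 3, 3 and 6 in treated Tespa1+/+, and 0 in all 3 libraries of treated Tespa1-/-. A count of 0 there allows up to 0.11 to 0.135 CPM, and 2 of the treated Tespa1+/+ libraries were at the floor themselves. The next steps of the pathway, Dpys and Upb1, summed to 1.68 CPM or less in every library. Without the filter on low counts Dpyd was not called in any comparison (adjusted p 0.136 to 0.78 by edgeR).

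The wider pathway was taken as 8 lists with 76 other genes, and its counts are set beside the shares of all genes tested. In Tespa1+/+ after 5-FU, 2 of the 71 genes tested rose and 4 fell, with a median of -0.08 on the log2 scale, near the 3.77% and 4.18% of all genes called. DESeq2 called 6 higher and 9 lower. Of the de novo pyrimidine enzymes outside Umps, 2 of 4 fell: Cad, which runs the first steps of the pathway, by 0.21 and Ctps, which makes CTP, by 0.41 on the log2 scale (adjusted p = 0.0409 and 0.0236 by edgeR). The uridine kinase Uck2 fell by 0.33 and the nucleoside transporter Slc29a1 by 0.46 (adjusted p = 0.0242 and 0.0478 by edgeR).

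The 2 rises in Tespa1+/+ were Samhd1, which degrades dNTPs, and the AMP deaminase Ampd3. Samhd1 was at 140, 138 and 131 CPM in untreated and 203, 195 and 196 CPM in treated Tespa1+/+ (log2 fold change 0.54, adjusted p = 0.000684 by edgeR). Ampd3, at 4.1 to 5.24 CPM in untreated and 8.06 to 14.2 CPM in treated Tespa1+/+, rose by 1.20 (adjusted p = 0.0236 by edgeR).

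In Tespa1-/-, 14 of 73 pathway genes tested rose after 5-FU and 8 fell, with a median of -0.02, where 10.7% of all genes were called higher and 8.64% lower. The count of falls was thus near that of all genes. Ampd3 rose 4.31-fold and the purine-degrading xanthine dehydrogenase Xdh 2.84-fold, and Impdh1, which commits IMP to guanine nucleotides, rose 1.94-fold (adjusted p = 3.76e-05, 7.81e-05 and 0.000543 by edgeR). Of the 7 transporters tested 3 rose and 1 fell: on the log2 scale, the concentrative nucleoside transporter Slc28a2 rose by 0.60 and the nucleotide exporter Abcc5 by 0.56, and the nucleoside transporter Slc29a3 fell by 1.03 (adjusted p = 0.00173, 0.00295 and 0.00998 by edgeR). Of the 15 salvage and activating enzymes 3 rose, among them the mitochondrial kinases Cmpk2 by 0.67 and Tk2 by 0.66, and 1 fell, the dCMP deaminase Dctd by 0.71 (adjusted p = 0.000931, 0.0437 and 0.0259 by edgeR). Of the 12 folate enzymes 2 rose, Fpgs by 0.71 and Mthfd1 by 0.30, and 1 fell, Shmt1 by 0.56 (adjusted p = 0.0118, 0.00532 and 0.00167 by edgeR). In the purine list, beside the rise of Impdh1, Prps2, which makes phosphoribosyl pyrophosphate, fell by 0.65 and Paics by 0.32 on the log2 scale (adjusted p = 0.000648 and 0.0106 by edgeR).

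Between the untreated genotypes, 1 of 73 pathway genes was higher, Xdh by 1.44 (adjusted p = 0.045 by edgeR), and 0 were lower by edgeR, while DESeq2 called 2 higher and 3 lower, and without adjustment, at a p below 0.05, 6 were higher and 4 lower. Of all genes tested 1.64% were called higher and 3.59% lower, so that 1 of 73 was near the background. After 5-FU, 13 of 71 were higher in Tespa1-/- and 2 were lower, with a median of 0.03 beside -0.01 over all genes tested, of which 7.34% were called higher and 5.78% lower. DESeq2 called 15 higher and 6 lower. By list, those higher were 3 of 7 transporters, 3 of 12 nucleotide-degrading enzymes, 3 of 14 enzymes of purine synthesis and salvage, 2 of 12 folate enzymes and 2 of 4 de novo pyrimidine enzymes, and those lower were 1 purine enzyme and 1 of 8 enzymes of the dNTP pool. Of 14 salvage and activating enzymes 0 were called by edgeR or DESeq2, and 1 was higher at an unadjusted p below 0.05. The 2 further enzymes of 5-FU breakdown could not be tested. The de novo enzymes Cad and Ctps were higher by 0.36 and 0.44 (adjusted p = 0.00143 and 0.0203 by edgeR), Mthfd1, which interconverts the folates that feed Tyms, by 0.62, and the purine enzymes Impdh1 and Aprt by 0.54 and 0.63 (adjusted p = 0.000404, 0.000997 and 0.00442 by edgeR). Xdh was 3.47-fold and Ampd3 2.26-fold higher (adjusted p = 0.000558 and 0.00648 by edgeR).

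The 2 genes lower in treated Tespa1-/- were Prps2, by 0.45, and Samhd1, by 0.40 (adjusted p = 0.0141 and 0.00315 by edgeR). Samhd1, whose enzyme removes the products that ribonucleotide reductase leads to, was at 154, 140 and 158 CPM in treated Tespa1-/-, between the untreated Tespa1-/- libraries (119 to 135 CPM) and the treated Tespa1+/+ ones. Its direction between the treated genotypes was thus opposite to that of Rrm2. Rrm2b, the alternative small subunit that p53 induces, was chosen for mention after its values were seen. Its level was 9.95 to 13.8 CPM in treated Tespa1+/+ and 7.78 to 8.66 CPM in treated Tespa1-/-, a difference of -0.44 (95% interval -0.891 to 0.00707, adjusted p = 0.194 by edgeR) that was not called.

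In the interaction, 7 of 74 pathway genes had a larger 5-FU effect in Tespa1-/- and 0 a smaller one by edgeR, while DESeq2 called 10 larger and 1 smaller, and 14 were larger and 4 smaller at an unadjusted p below 0.05. Of all genes tested, 3.02% were called larger and 1.99% smaller. They included both de novo pyrimidine enzymes that fell in Tespa1+/+, Cad (0.33, adjusted p = 0.0122) and Ctps (0.44, adjusted p = 0.0477), with Mthfd1 (0.53), the folate polyglutamylating enzyme Fpgs (0.87), Impdh1 (0.77), Abcc4 (0.54) and Slc28a2 (0.52), with adjusted p of 0.00388 to 0.0457 by edgeR. Umps and Cad were both lower in treated than in untreated Tespa1+/+. The ratio of Umps to Cad in CPM per kb was 0.997 ± 0.0413, 0.99 ± 0.0581, 0.944 ± 0.03 and 0.69 ± 0.0281 in untreated Tespa1+/+, untreated Tespa1-/-, treated Tespa1+/+ and treated Tespa1-/- (SD, n = 3). The treated Tespa1-/- libraries lay below all others, with an exact permutation p of 0.1 against treated Tespa1+/+ and against untreated Tespa1-/-, the smallest possible, while in Tespa1+/+ the p between treated and untreated was 0.3.

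**Figure D4:**
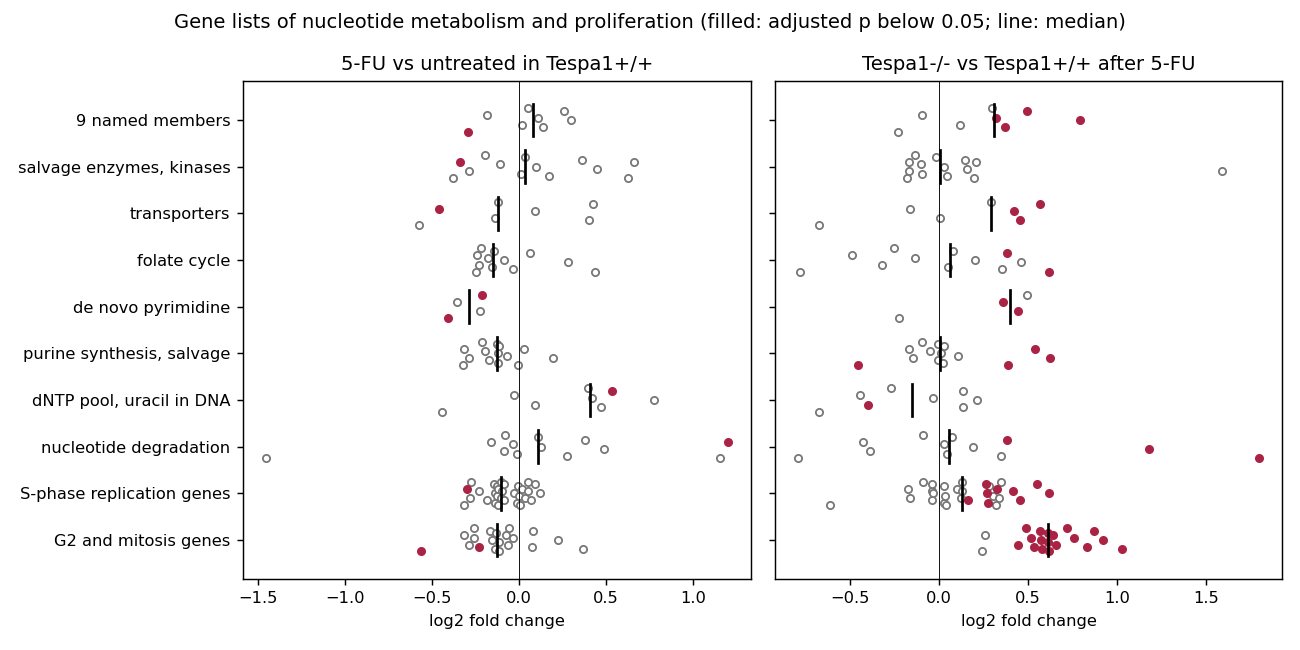
Log2 fold change (horizontal axis) of the tested genes of the members, of 7 other pathway lists and of the S-phase and the G2 and mitosis lists, in Tespa1+/+ after 5-FU against untreated (left) and in Tespa1-/- against treated Tespa1+/+ (right). Points are genes, filled where the adjusted p is below 0.05, and black lines are medians. On the right, 18 of 20 G2 and mitosis genes are filled and lie above 0, where 7.34% of all genes tested were called higher.

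Likeness of pattern was measured as the root mean square difference of log2(CPM + 1), centred per gene, over the 12 libraries and among 11195 genes with a mean of at least 5 CPM. The genes nearest to Rrm2 were Acss1 (0.0988) and Ehbp1l1 (0.107), and those nearest to Rrm1 were the cytoskeletal gene Flna (0.0367) and the topoisomerase gene Top2a (0.0434). Tk1 was nearest to Lrwd1 (0.0883) and E2f4 (0.0886), Dut to Sars (0.0603) and Tomm7 (0.0637), Umps to Mdn1 (0.0468) and Gm7901 (0.0629), and Tyms to Aimp1 (0.0606) and Eri1 (0.0829). For scale, the SD of the same log2 values over the 12 libraries was 0.472 for Rrm2, 0.268 for Tk1, 0.191 for Umps, 0.17 for Dut and 0.141 for both Rrm1 and Tyms. For the rare members the nearest genes stood at 0.113 (H2-T-ps) for Upp1, 0.33 (Mapkapk5) for Tymp and 0.0947 (Gm29216) for Dpyd, whose own SDs were 0.206, 0.591 and 0.218.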

How the data were processed

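LSKs of 4 groups of 3 libraries were profiled by paired-end RNA-seq with a stranded poly-A kit. The authors deposited raw counts per gene and, in the same table, FPKM values that they derived from these counts and a gene length. FPKM values were used here only to recover that length. The submitters' processing notes name CASAVA 1.8, HISAT2, StringTie, edgeR and the GRCm38 build, without their roles. The counter and its use of strand are not given in the sources used here, so that overlapping genes may share reads. No per-sample column was without a sample (0).

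Counts were tested with edgeR 4.0.16 in R 4.3.3: filterByExpr on the groups compared (minimum count 10), TMM factors, the quasi-likelihood test, and Benjamini-Hochberg adjustment over all genes tested, called below 0.05. Pairwise tests used 6 libraries and the interaction all 12. CPM were scaled by TMM over the 12 libraries. Ratios were compared by two-sided exact permutation tests. The scripts were tested on simulated data. Replicates of a group differed by more than sampling noise (median chi-square per gene 2.08 to 5.87), so none was counted as a duplicate.

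The 17 gene lists, which include that of the members, and the alternatives were chosen with earlier results of these data known. All 9 members are named. From each other list and comparison, at most the 2 largest called rises and the 2 largest called falls could be named, beside Tespa1 and the 2 nearest neighbours of each member. Kit, Mpo, Rrm2b, Dpys, Upb1 and the genes that overlap or copy a member were named outside this rule, after their values were seen. Alternatives were DESeq2 1.42.0, RLE factors, library totals, no filter, a minimum of 10 counts per library, a joint fit of the 12 libraries, the study's thresholds, a block on the replicate number and omission of each library in turn. The table's own positions are given, and 53360 of its genes are in GENCODE M21. Promoter windows are from RefSeq (GRCm38.p6), which matched all 9 members. No protein sequence was used here.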

Additional observations from a re-analysis of the deposited data

Results flagged for a closer look

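The difference between the genotypes in the 5-FU log2 fold change was past the threshold of the interaction test for 2 members. For Rrm2 it was 0.82 (edgeR's quasi-likelihood test, adjusted p = 0.00022), from fold changes of 0.30 in Tespa1+/+ and 1.11 in Tespa1-/-, with 3 of 3 treated libraries above the untreated ones in each genotype. For Rrm1 it was 0.40 (adjusted p = 0.00147 by edgeR), from -0.18 in Tespa1+/+ and 0.21 in Tespa1-/-, with 3 of 3 treated libraries below the untreated ones in Tespa1+/+ and 3 of 3 above them in Tespa1-/-. Erythroid and neutrophil markers and the G2 and mitosis genes differed between the same libraries, and their part in these differences was not tested.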

How the results depend on the processing

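The calls of Rrm2 and Rrm1 in treated Tespa1-/- against either control group and in the interaction kept their direction and stayed past the threshold under every alternative run with an adjusted p. The study's thresholds (unadjusted P and a fold above 1.5) gave 1 member higher, Rrm2, in each of these comparisons and 0 lower in either genotype after 5-FU, by construction, since the other calls were below 1.5-fold.

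In Tespa1+/+ after 5-FU, the count of higher members was 1 in place of 0 with library totals, 10 counts in every library, DESeq2 and all 12 libraries. The count of lower members there was 0 in place of 1 with library totals, with no filter and with the replicate block, and 2 with DESeq2 and all 12 libraries. Leaving out 1 library gave 0 to 0 lower members there, 2 to 3 higher in Tespa1-/- after 5-FU and 2 to 4 higher between the treated genotypes. The cause was not tested, except that these fits have fewer samples.

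The replicate numbers did not pair the libraries: same-number correlations of deviations ran from -0.0329 to 0.0167, and a library correlated best with its own number in 3 of 12 checks. With the replicate block, Umps in Tespa1+/+ was at -0.29 with an adjusted p of 0.0745 by edgeR, the genes called between untreated genotypes were 116 higher and 338 lower in place of 280 and 612, and Tymp there turned to 0.17. No other member call changed under the block.

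Besides Tymp under the block, the values that changed sign did so when 1 library was left out, and none was called. For Tyms the range was -0.0791 to 0.1202 in Tespa1+/+ after 5-FU, -0.0463 to 0.1238 between untreated genotypes and -0.0453 to 0.169 in the interaction. For Tymp it was -0.7993 to 1.3708 and -0.2169 to 1.1385 after 5-FU in Tespa1+/+ and Tespa1-/-, -0.7884 to 0.9738 and -0.6062 to 1.2153 between untreated and treated genotypes, and -0.6689 to 1.49 in the interaction. For Upp1 it was -0.0478 to 0.2597 in Tespa1-/- after 5-FU, -0.2577 to 0.0678 between untreated genotypes and -0.4107 to 0.0451 in the interaction. For Dut in Tespa1+/+ after 5-FU it was -0.0031 to 0.117, and between untreated genotypes -0.0227 to 0.0743 for Umps and -0.0767 to 0.0184 for Rrm2.

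Over all genes, DESeq2 called 528 higher and 899 lower between untreated genotypes, 1003 and 1059 in Tespa1+/+ after 5-FU in place of 641 and 711, and 869 and 665 in the interaction in place of 564 and 372, and all 12 libraries gave 1030 and 1084 in Tespa1+/+. The study's thresholds gave 1077 higher in Tespa1+/+, 603 higher between untreated genotypes, and 778 and 1164 in the interaction. Without 1 library the lowest counts were 370 and 413 (without treated Tespa1+/+ replicate 1), 940 lower in Tespa1-/- after 5-FU (without untreated Tespa1-/- replicate 2), 82 higher and 250 lower between untreated genotypes (without untreated Tespa1-/- replicates 3 and 2), 839 higher between treated genotypes (without treated Tespa1-/- replicate 2), and 352 and 219 in the interaction (without untreated Tespa1-/- replicates 1 and 2). Without the filter, the median of all genes moved to -0.376 in Tespa1-/- after 5-FU, 0.225 between untreated genotypes and -0.391 in the interaction. Upp1, Tymp and Dpyd had the fewest counts. Dpyd passed the filter in some fits without 1 library and was not called in them.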
